A study of Homo sapiens with 10 samples.

Results

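The small and inducible heat shock genes of the prostate cancer line PC3 were followed across 4 derived lines, as a set of 10 genes: HSPB1, HSPB8, CRYAB, BAG3, HSPA1A, HSPA1B, HSPA8, HSPH1, DNAJB1 and HSP90AA1. They are 10 of the 23170 gene rows of each expression table and were found by their symbols. The set was chosen from these same tables, with the measured differences between the lines known and above all those between the OVOL2 and OVOL1 lines, so the values below describe the genes and no test is made of them.

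The question of the study was what the zinc finger transcription factors OVOL1 and OVOL2 do in a model of the epithelial to mesenchymal transition. PC3-Epi (2 samples) is an epithelial population of PC3 that was picked for its shape and for a luciferase vector. PC3-EMT14 (3 samples) is a mesenchymal population grown out of PC3-Epi after co-culture with M2 macrophages, which were monocytes treated with interleukin 4. In the remaining lines PC3-EMT14 was transduced with lentivirus to overexpress OVOL1 (PC3-EMT14-OVOL1, 3 samples) or OVOL2 (PC3-EMT14-OVOL2, 2 samples), and all 4 lines descend from the luciferase-expressing population. The OVOL1 and OVOL2 constructs came from different lentiviral systems, so that construct and gene identity cannot be told apart, and no line of PC3-EMT14 with an empty vector is among these samples.

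Heat shock proteins are chaperones that hold or refold damaged proteins. The small heat shock proteins (HSPB1, HSPB8 and CRYAB) bind unfolding proteins without ATP. The HSP70 proteins refold them with ATP, with J-domain proteins such as DNAJB1 delivering clients and nucleotide exchange factors such as HSPH1 and BAG3 releasing them. BAG3 also joins HSPB8 to HSP70 in a complex that sends damaged proteins to autophagy. Under stress the genes are switched on by heat shock factor HSF1, which binds heat shock elements, inverted repeats of the unit GAA, in their promoters.

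The sequences just before the start sites are given first, since they show what the genes share apart from their RNA levels. RefSeq windows (GRCh38.p14) were available for 9 of the 10 genes, in 12 windows of 250 bases before to 50 bases after a start. A pair of inverted units, GAANNTTC or TTCNNGAA, each its own reverse complement and so the same on both strands, was present in 8 windows of 7 genes. Of all 35116 windows for human genes, 13.5% hold such a pair (6.77% hold GAANNTTC and 7.74% hold TTCNNGAA). An unbroken run of 3 alternating units, the minimum of a complete heat shock element, lay in 2 windows, those of HSPA8 and of the second start of HSP90AA1, against 0.49% of all windows. These longer matches contain the pair motifs, so the counts overlap. Only exact units were searched, so a window without such a run may still hold an imperfect element. The 250 bases before the start are printed for HSPB8, the gene that differed most between the OVOL lines, and its partner BAG3. They are also printed for the 3 abundant genes with the largest ratios between those lines (HSPB1, HSPA1A and HSPA1B). Last are the genes with an exact run of 3 units (HSPA8 and HSP90AA1), whose levels differed least of the 10 between the OVOL lines. HSPA6, an HSP70 gene outside the 10, also held such a run and was 2.55-fold higher in the OVOL2 line than in the OVOL1 line. A link between runs and levels was not tested. Capitals mark every match to either pair motif, and each sequence runs 5′ to 3′ along the gene's own strand.
HSPB8, chr12:119178681-119178930, plus strand: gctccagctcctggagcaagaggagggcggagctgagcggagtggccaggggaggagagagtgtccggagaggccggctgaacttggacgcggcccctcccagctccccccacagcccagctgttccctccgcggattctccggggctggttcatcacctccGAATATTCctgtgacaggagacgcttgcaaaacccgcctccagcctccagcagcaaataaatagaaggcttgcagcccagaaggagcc
HSPB1, chr7:76302423-76302672, plus strand: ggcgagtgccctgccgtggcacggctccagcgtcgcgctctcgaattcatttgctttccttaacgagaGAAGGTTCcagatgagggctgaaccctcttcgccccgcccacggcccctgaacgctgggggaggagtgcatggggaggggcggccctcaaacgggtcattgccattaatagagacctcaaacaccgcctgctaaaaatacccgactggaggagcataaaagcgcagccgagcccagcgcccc
HSPA1A, chr6:31815293-31815542, plus strand: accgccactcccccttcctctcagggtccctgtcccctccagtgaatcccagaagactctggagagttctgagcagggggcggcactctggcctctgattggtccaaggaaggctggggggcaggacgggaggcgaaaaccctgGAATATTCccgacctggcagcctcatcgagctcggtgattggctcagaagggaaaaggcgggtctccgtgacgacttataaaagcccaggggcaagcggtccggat
HSPA1B, chr6:31827488-31827737, plus strand: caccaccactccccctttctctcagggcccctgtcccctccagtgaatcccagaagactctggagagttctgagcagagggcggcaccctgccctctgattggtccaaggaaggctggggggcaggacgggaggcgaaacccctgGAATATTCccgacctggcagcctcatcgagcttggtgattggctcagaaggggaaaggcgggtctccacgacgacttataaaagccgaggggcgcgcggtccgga
HSPA8, chr11:123062137-123062386, minus strand: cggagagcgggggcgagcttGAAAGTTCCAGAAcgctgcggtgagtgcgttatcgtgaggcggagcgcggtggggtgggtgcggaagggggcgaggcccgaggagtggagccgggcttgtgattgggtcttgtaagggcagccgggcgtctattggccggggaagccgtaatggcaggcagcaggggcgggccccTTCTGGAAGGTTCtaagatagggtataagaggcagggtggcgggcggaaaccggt
HSP90AA1 (second start), chr14:102087045-102087294, minus strand: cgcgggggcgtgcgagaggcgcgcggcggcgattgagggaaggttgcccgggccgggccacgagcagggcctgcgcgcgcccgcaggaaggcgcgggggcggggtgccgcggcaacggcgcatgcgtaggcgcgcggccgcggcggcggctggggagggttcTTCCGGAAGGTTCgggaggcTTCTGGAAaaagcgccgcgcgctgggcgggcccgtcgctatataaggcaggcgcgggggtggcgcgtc
BAG3, chr10:119651130-119651379, plus strand: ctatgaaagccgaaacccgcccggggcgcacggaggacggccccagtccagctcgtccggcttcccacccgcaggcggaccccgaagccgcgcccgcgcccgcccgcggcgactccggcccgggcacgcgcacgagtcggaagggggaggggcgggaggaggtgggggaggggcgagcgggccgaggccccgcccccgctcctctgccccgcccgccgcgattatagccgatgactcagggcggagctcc

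The HSPA1A and HSPA1B sequences were alike at 92.0% of aligned bases over the whole windows. Counted from 1 at the first transcribed base, with -1 the base before it, their motifs began at positions -106 and -105. HSPB8 held a motif at -88 and another at 5, beyond the stretch printed, and HSPB1 held its motif at -182. None was found in the windows of BAG3 and HSPH1. DNAJB1 held motifs at 2 of its 3 starts, at -77, -47 and 2. The published consensus for OVOL2 binding was in 0 of the 12 windows, against 0.98% of all windows. A match is a string of letters, and its presence or absence here says nothing about binding in these cells.

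**Figure D1:**
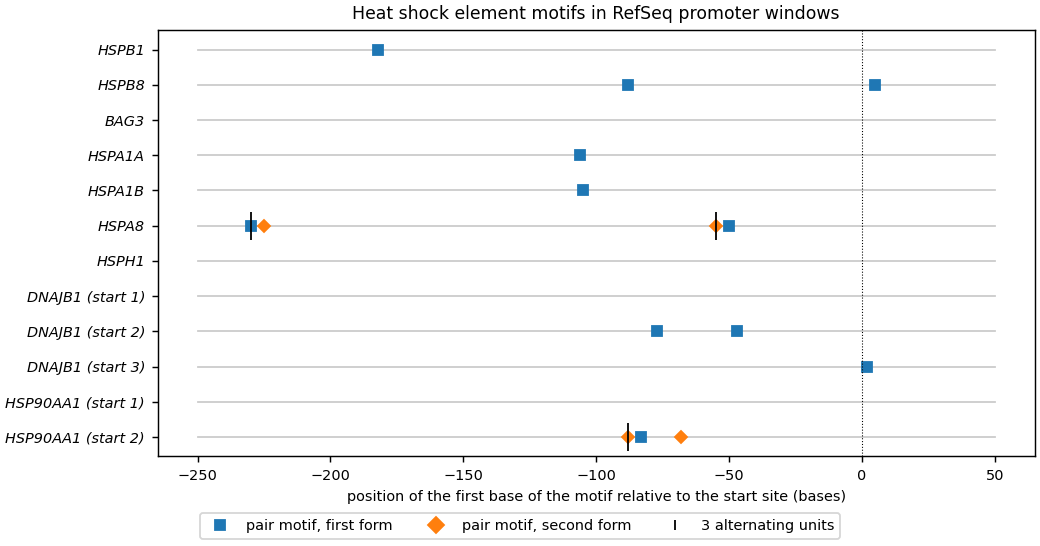
Positions of heat shock element motifs in the 12 RefSeq windows of 9 genes. The x axis gives the first base of each motif relative to the start site, in bases; grey lines are the windows, squares and diamonds the first (GAANNTTC) and second (TTCNNGAA) pair motif, and vertical ticks the start of 3 alternating units. The motifs of HSPA1A and HSPA1B lie 1 base apart, and the windows of BAG3, HSPH1 and the first starts of DNAJB1 and HSP90AA1 are empty.

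Expression was measured as FPKM, fragments scaled to transcript length and to library size, which the authors pooled over the samples of a line within each of 4 pairwise tables. Each gene therefore has 1 value per line and table and no replicate spread, and the depth behind a value is unknown. The study calls the samples of a line biological replicates, and the labels do not say whether they came from separate cultures. Values of the same line in different tables are rescaled copies of each other (median ratios from 0.969 to 1.01), and 3 of the 4 comparisons share the PC3-EMT14 samples. Each ratio between lines was taken within 1 table. Levels listed for several lines join tables, so their quotients can differ slightly from the ratios given. A gene was called higher or lower at a 2-fold ratio or more with the larger value at 1 FPKM or more; the call is a size of difference, not a test. The overexpressed genes matched the labels: OVOL1 was 0.0238 FPKM in PC3-EMT14 and 11.3 FPKM in the OVOL1 line, and OVOL2 was 0.370 FPKM in PC3-EMT14 and 831 FPKM in the OVOL2 line. The transgenes thus stood at unlike levels, which cannot be told apart from the difference between the genes themselves. PC3-Epi itself had 4.25 FPKM of OVOL1 and 9.91 FPKM of OVOL2. The epithelial marker CDH1 (E-cadherin) was 50.6 FPKM in PC3-Epi and 1.00 FPKM in PC3-EMT14, and the mesenchymal marker VIM (vimentin) was 42.5 and 271 FPKM. Of 12 macrophage markers only CD68, which many cell types express, reached 1 FPKM, and C1QA and C1QB were listed at 0 in every line. CD68 was called lower in PC3-Epi than in PC3-EMT14, with a log2 ratio of -2.03, and the source of its RNA was not tested. In pooled bulk RNA, fewer cells that express a gene and less RNA per cell cannot be told apart.

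The 10 genes spanned a wide range within each line. Apart from BAG3, their order by FPKM, a scale per transcript length, was the same in all 4 lines. BAG3 ranked 4 of 10 in PC3-EMT14, 7 in the OVOL1 line and 8 in the OVOL2 line and PC3-Epi. HSP90AA1, HSPA8 and HSPB1 took the top 3 places in each line, in that order, and together held 78.5% to 84.9% of the FPKM summed over the 10 genes. That sum was 2027 FPKM in PC3-EMT14, 2316 FPKM in the OVOL1 line, 2503 FPKM in the OVOL2 line and 2433 FPKM in PC3-Epi. HSPB8 and CRYAB were last, at 0.233 to 3.00 FPKM, and the other 5 lay between 52.3 and 144 FPKM.

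**Figure D2:**
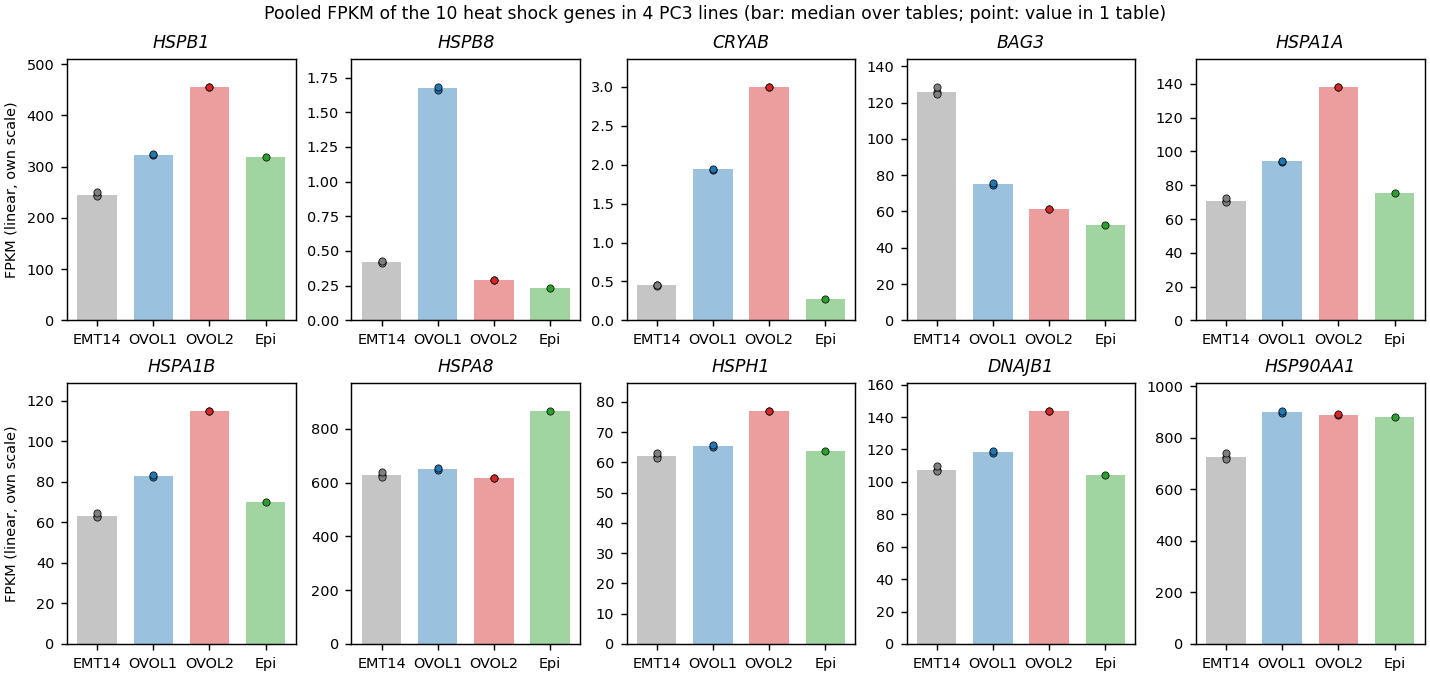
Pooled FPKM of the 10 genes in PC3-EMT14, the OVOL1 line, the OVOL2 line and PC3-Epi. Bars are the median over the tables that hold a line, points the value in each table, and each panel has its own linear y axis from 0; there are no error bars because the values are pooled. BAG3 is highest in PC3-EMT14, HSPB8 in the OVOL1 line, and CRYAB, HSPB1, HSPA1A, HSPA1B, HSPH1 and DNAJB1 in the OVOL2 line.

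Between the OVOL lines 1 of the 10 genes passed the 2-fold call, and it was lower with OVOL2. No gene was called higher. Over all 12188 genes tested, 1.9% were called higher and 1.17% lower in the OVOL2 line. The 10 ratios had a median of 0.27 on the log2 scale, beside -0.04 for all genes tested, and 6 of the 10 were above 1, beside 42.5% of all genes (7 of the 10 once ratios were divided by the median ratio of all genes). With the larger value at 10 FPKM or more, 0 of 8 genes were called, against 2.21% of all genes in either direction. The genes were chosen on this comparison, so these counts are a description.

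HSPB8, a partner of BAG3 in chaperone-assisted autophagy, was the gene that was called. Its level was 1.66 FPKM in the OVOL1 line and 0.291 FPKM in the OVOL2 line, a 5.71-fold lower value and a log2 difference of -2.51. In PC3-EMT14 it was 0.421 FPKM and in PC3-Epi 0.233 FPKM. The OVOL1 line thus stood alone above 1 FPKM, 3.99-fold above PC3-EMT14, while the ratio of the OVOL2 line to PC3-EMT14 was 0.699 with both values under 1 FPKM. Since only the OVOL1 line passed the floor, HSPB8 could be called only lower in the OVOL2 line against the OVOL1 line. Likewise it could be called only higher in the OVOL1 line against PC3-EMT14. All 4 values are low, and how many reads they rest on is not known. The locus is chr12:119616595-119632551 on the plus strand of hg19, where the annotation has a gene of 3 exons. No 50-base stretch of its transcript, the length of the reads, occurs in a transcript of another gene.

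CRYAB encodes alpha B-crystallin, the small heat shock protein of lens and muscle. It was 0.449 FPKM in PC3-EMT14, 1.95 FPKM in the OVOL1 line, 3.00 FPKM in the OVOL2 line and 0.276 FPKM in PC3-Epi. Both OVOL lines were above PC3-EMT14 by 4.35-fold and 6.75-fold, and PC3-Epi was the lowest of the 4, so CRYAB did not follow the epithelial markers across the lines. PC3-Epi and PC3-EMT14 were both under 1 FPKM, so the difference between these 2 lines was not tested. The OVOL2 line was 1.55-fold above the OVOL1 line, under the 2-fold call. CRYAB (chr11:111779350-111782473 in hg19, minus strand) lies 986 bases from a row shared by HSPB2 and C11orf52 on the opposite strand, and the annotated CRYAB gene reaches into it. That row was 10.1 FPKM in PC3-Epi and 4.16 FPKM in PC3-EMT14. PC3-Epi was thus the line with the lowest CRYAB level, while this row was higher there than in PC3-EMT14, though CRYAB was under 1 FPKM in both.

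HSPB1 (HSP27) binds actin filaments as well as damaged proteins and was by far the most abundant of the 3 small heat shock genes. Its pooled level was 246 FPKM in PC3-EMT14, 326 FPKM in the OVOL1 line, 455 FPKM in the OVOL2 line and 320 FPKM in PC3-Epi. PC3-EMT14 was the lowest line and the OVOL2 line the highest, with PC3-Epi and the OVOL1 line close together between them. The OVOL2 line exceeded the OVOL1 line 1.41-fold, a log2 difference of 0.50, and 94.0% of all genes tested had a lower ratio. HSPB1 was 1.87-fold higher in the OVOL2 line than in PC3-EMT14, just short of the call. Its locus is chr7:75931875-75933614 in hg19 on the plus strand, with 3 exons, and 13.5% of the 50-base stretches of its transcript also occur in a transcript of the pseudogene HSPB1P1.

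The 2 major stress-inducible HSP70 genes, HSPA1A and HSPA1B, encode nearly the same protein from neighbouring loci without introns. They lie 9792 bases apart on chromosome 6 (chr6:31783291-31785719 and chr6:31795512-31798031 in hg19, both plus strand). HSPA1A was 70.6 FPKM in PC3-EMT14, 94.6 FPKM in the OVOL1 line, 138 FPKM in the OVOL2 line and 75.6 FPKM in PC3-Epi. HSPA1B was 63.3, 83.2, 115 and 70.2 FPKM in the same order of lines. Both were highest in the OVOL2 line and lowest in PC3-EMT14, with PC3-Epi close to PC3-EMT14. Their transcripts were identical at 91.2% of aligned bases, and 75.1% of the 50-base stretches of HSPA1A occur in transcripts of other genes, all of these in HSPA1B, so the split of reads between them is uncertain and the sum is the safer quantity. The sum in the OVOL2 line was 253 FPKM, 1.44-fold that of the OVOL1 line and 1.91-fold that of PC3-EMT14, and HSPA1A took 51.8% to 54.5% of it in every line.

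HSPA8, the constitutive HSP70, differed little among the 3 mesenchymal-derived lines. It was 627 FPKM in PC3-EMT14, 656 FPKM in the OVOL1 line, 619 FPKM in the OVOL2 line and 868 FPKM in PC3-Epi, where it was highest, 1.36-fold above PC3-EMT14. HSPA8 was 4.68 times the HSPA1A and HSPA1B sum in PC3-EMT14 and 2.44 times that sum in the OVOL2 line. HSP90AA1, the stress-inducible cytosolic HSP90, was 724 FPKM in PC3-EMT14, 905 FPKM in the OVOL1 line, 890 FPKM in the OVOL2 line and 879 FPKM in PC3-Epi. PC3-EMT14 stood lowest and the other 3 lines lay close together. HSPA8 (chr11:122928200-122932844) and HSP90AA1 (chr14:102547075-102606086, both hg19, minus strand) share 16.8% and 19.1% of their 50-base stretches with other genes, among them the pseudogenes HSPA8P1 and HSP90AA2P, and their values carry that uncertainty. The isoform rows added nothing to this order: 8 genes had 1 isoform row, and the minor isoform took at most 0.131% of HSPA8 and 1.22% to 1.53% of HSP90AA1.

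The cofactors of HSP70 went different ways. DNAJB1, the J-domain protein (HSP40) that starts its cycle, was 108 FPKM in PC3-EMT14, 119 FPKM in the OVOL1 line, 144 FPKM in the OVOL2 line and 104 FPKM in PC3-Epi. HSPH1 (HSP110), a nucleotide exchange factor, was 61.9, 65.7, 77.1 and 63.7 FPKM in those lines. For both the OVOL2 line was highest, at 1.22-fold and 1.19-fold the OVOL1 line. Their loci are chr19:14625582-14629201 and chr13:31710763-31736117 in hg19, both on the minus strand. BAG3, a nucleotide exchange factor that is itself a target of HSF1, was highest in PC3-EMT14.

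BAG3 was 126 FPKM in PC3-EMT14, 75.7 FPKM in the OVOL1 line, 61.3 FPKM in the OVOL2 line and 52.3 FPKM in PC3-Epi. All 3 other lines were below PC3-EMT14, by 1.66-fold, 2.03-fold and 2.45-fold, and the last 2 passed the call. Between the OVOL lines it was 1.22-fold lower with OVOL2. As a share of the HSPA8 level, BAG3 was 20.1% in PC3-EMT14, 11.5% in the OVOL1 line, 9.90% in the OVOL2 line and 6.03% in PC3-Epi. VIM had the same order of lines, at 265 FPKM in PC3-EMT14, 183 FPKM in the OVOL1 line, 76.9 FPKM in the OVOL2 line and 42.5 FPKM in PC3-Epi. The mesenchymal marker ZEB1 also had this order. The marker CDH2 did not, at 10.1 FPKM in the OVOL2 line and 11.3 FPKM in PC3-Epi. How many of all genes share the order was not counted. Any part of the mesenchymal state in the BAG3 difference was not tested. The BAG3 locus is chr10:121410882-121437329 in hg19 on the plus strand, with 4 exons, and no 50-base stretch of its transcript is shared with another gene.

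Against PC3-EMT14 the OVOL1 line had 2 of the 10 genes called higher, HSPB8 and CRYAB, where 2.43% of the 12197 genes tested were called higher. Both were under 1 FPKM in PC3-EMT14 and reached the floor only in the OVOL1 line, so they could be called in no other direction. None of the 10 was called lower, against 1.54% of all genes. All ratios but that of BAG3, 9 of 10, were above 1, beside 49.7% of all genes. The median log2 ratio was 0.36, beside 0.00 for all genes. Both values include HSPB8 and CRYAB, which passed the floor only through the OVOL1 line. At 10 FPKM or more the median was 0.23 for the 8 members and 0.02 for all genes. Among genes with a value of 10 FPKM or more, 0 of 8 members were called and 2.31% of all genes.

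Against PC3-EMT14 the OVOL2 line had 1 gene called higher, CRYAB (4.42% of the 12307 genes tested), and 1 called lower, BAG3 (2.93%). CRYAB reached 1 FPKM only in the OVOL2 line, so it could be called only higher. HSPB8 was not tested, since both values were under 1 FPKM. HSPA1A at 1.98-fold was just under the threshold and BAG3 at 2.03-fold just over it. The median log2 ratio of the 10 genes, with the untested HSPB8, was 0.38, beside -0.04 for all genes tested. Over the 8 genes at 10 FPKM or more the median was also 0.38. Of these 8 genes 1 was called, beside 5.0% of all genes.

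In PC3-Epi against PC3-EMT14, 8 of the 10 genes were tested, 0 were called higher (7.37% of all 12441 genes) and 1 was called lower, BAG3 (8.34%). The median log2 ratio over all 10 genes, with the untested HSPB8 and CRYAB, was 0.04, beside -0.01 for all genes tested. Over the 8 at 10 FPKM or more it was 0.09, beside 0.01 for all genes at that level. At 10 FPKM or more 1 of 8 was called, beside 11.1% of all genes. HSPA1A, HSPA1B, HSPH1 and DNAJB1 were within 1.09-fold of PC3-EMT14, whereas the OVOL2 line stood 1.26-fold to 1.98-fold above it. How the OVOL2 line differed from PC3-Epi was not tested directly, because no table used here compares them.

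**Figure D3:**
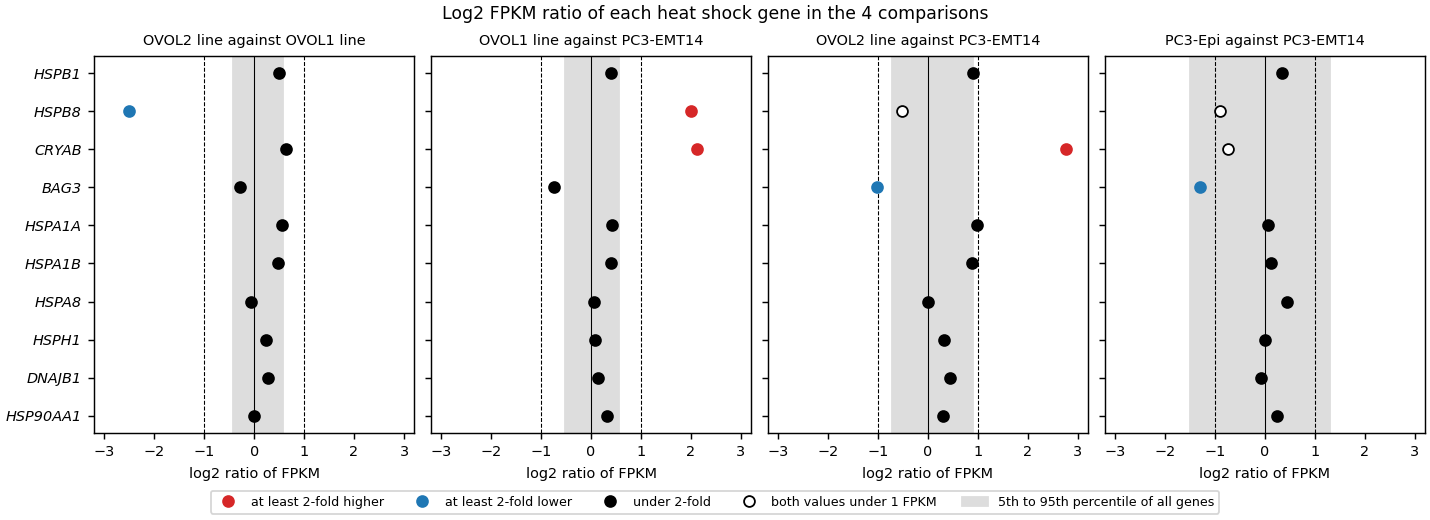
Log2 ratio of FPKM for each of the 10 genes in the 4 comparisons. Grey bands span the 5th to 95th percentile of all genes tested, dashed lines mark 2-fold, red and blue points are called higher or lower, black points are under 2-fold, and open points have both values under 1 FPKM. HSPB8 lies far left in the OVOL2 against OVOL1 panel (-2.51) and far right in the OVOL1 against PC3-EMT14 panel, where its ratio is 3.99.

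The other genes of the chaperone pathway were read as 8 lists with 84 genes, of which 83 had a row and 74 reached 1 FPKM in the OVOL2 against OVOL1 table. In that comparison 2 were higher by 2-fold and 0 lower, with a median log2 ratio of -0.10. The same counts were 1 and 0 for the OVOL1 line against PC3-EMT14, 3 and 0 for the OVOL2 line and 5 and 2 for PC3-Epi, each over 74 genes. The shares of all genes called higher and lower were 1.9% and 1.17% for the OVOL2 against OVOL1 comparison, then 2.43% and 1.54%, 4.42% and 2.93%, and 7.37% and 8.34% in the order above. The list counts include rows shared with genes outside the pathway. The HSPB2 row, called higher in the OVOL2 line and in PC3-Epi, has its signal in the isoform row of C11orf52. In the HSF4 row, called lower in PC3-Epi, only the FBXL8 isoform passed 2-fold.

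HSPA6, a strictly inducible HSP70 that is nearly silent in unstressed cells, was one of those called. It was 1.16 FPKM in PC3-EMT14, 2.03 FPKM in the OVOL1 line, 5.13 FPKM in the OVOL2 line and 0.754 FPKM in PC3-Epi. As for HSPA1A and HSPA1B, the OVOL2 line was highest and the OVOL1 line next. Between the OVOL lines the ratio was 2.55, and 45.8% of the 50-base stretches of HSPA6 also occur in HSPA7. ATF3, a stress-induced transcription factor, was 4.83 FPKM in PC3-EMT14, 10.1 FPKM in the OVOL1 line, 33.0 FPKM in the OVOL2 line and 27.2 FPKM in PC3-Epi, and was called higher in all 4 comparisons.

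The row shared by HSPB2 and C11orf52 was called higher in the OVOL2 line (4.03 against 8.93 FPKM) and in PC3-Epi. Its isoform rows place this in C11orf52, which was 4.01 FPKM in PC3-EMT14 and 8.90 FPKM in the OVOL2 line, while HSPB2 itself stayed at or under 0.0308 FPKM in every line. The authors' processing marked the C11orf52 isoform as low data and the HSPB2 isoform as not tested in every comparison. How reliable this split is was not tested. In PC3-Epi the calls also took in HSPA14 (17.9 FPKM in PC3-Epi, 6.86 FPKM in PC3-EMT14), the mitochondrial co-chaperonin HSPE1 (228 and 112 FPKM) and FKBP5, a cochaperone of HSP90 (12.3 and 5.23 FPKM). Lower there were HSPA12A (0.156 and 2.37 FPKM) and the row shared by HSF4 and FBXL8 (2.46 and 4.99 FPKM). Within that row the FBXL8 isoform was 1.36 and 2.98 FPKM and the 2 HSF4 isoforms were 0.347 and 0.691 FPKM and 0.748 and 1.32 FPKM, so all 3 were lower in PC3-Epi.

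Of the heat shock factor genes, HSF1 was 47.2 FPKM in PC3-EMT14, 49.2 FPKM in the OVOL1 line, 48.0 FPKM in the OVOL2 line and 57.6 FPKM in PC3-Epi. HSF1 acts through protein state, which RNA levels do not show. HSF2 was 6.28, 6.50, 4.94 and 4.72 FPKM in those lines, under 2-fold in each comparison. The only row of the list to be called was the one that HSF4 shares with FBXL8. Of its isoforms FBXL8 was more than 2-fold lower in PC3-Epi and each HSF4 isoform less than 2-fold lower, so the call is not one for HSF4.

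Chaperones of the endoplasmic reticulum answer a different stress pathway. All 15 of that list had a ratio below 1 in the OVOL2 line against the OVOL1 line, 13 of 15 once ratios were divided by the median ratio of all genes, with a median log2 ratio of -0.14 and 0 called. Ratios below 1 were common, since only 42.5% of all genes had a ratio above 1. The other HSP70 and HSP110 genes had a median as low, -0.15, with 6 of 8 below 1, and the heat shock factors one of -0.12. HSPA5 (BiP), the HSP70 of that compartment, was 239 FPKM in the OVOL1 line and 182 FPKM in the OVOL2 line. The median of the 12 HSP90 and chaperonin genes was -0.15 and that of the 12 other J-domain genes -0.07, beside -0.04 for all genes. The 6 other stress genes all had ratios above 1, UBB only at 1.001, with a median of 0.37, of which 1, ATF3, was called. Against PC3-EMT14 the OVOL2 line had 3 of these 6 above 1 and 3 below. Lists differed in size and level, and no test of one against another was made.

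**Figure D4:**
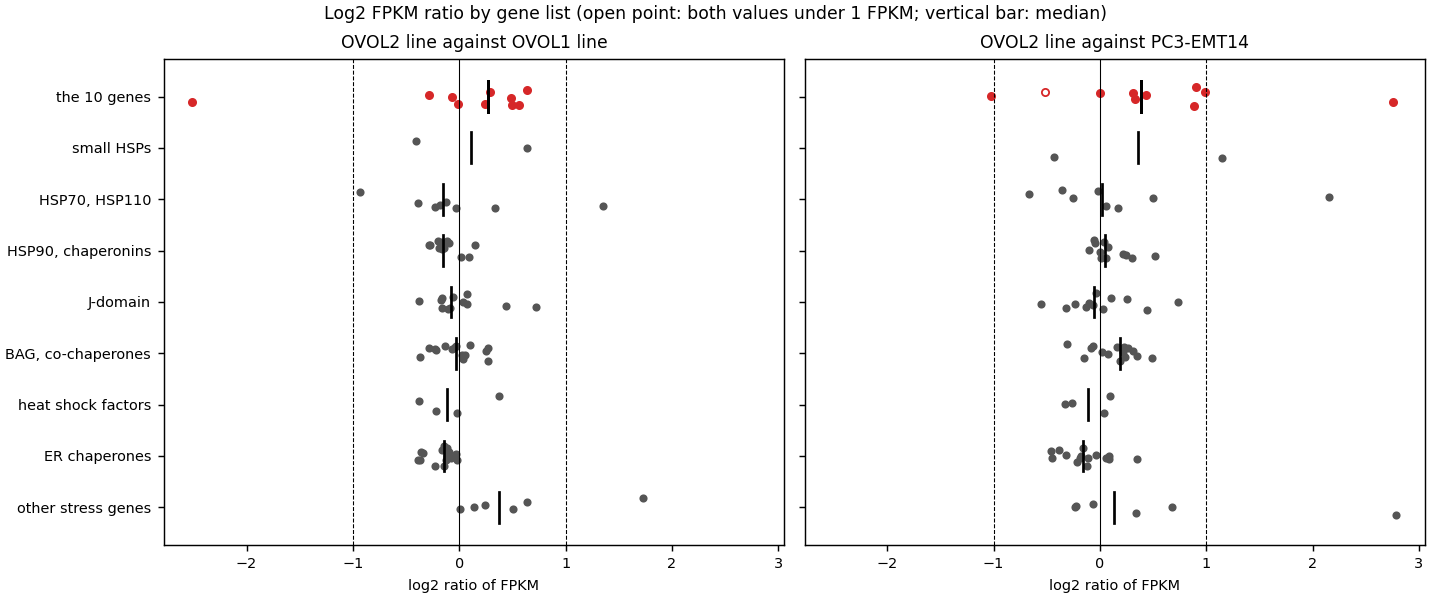
Log2 ratio of FPKM for the 10 genes (red) and 8 lists of other pathway genes (grey) in the OVOL2 line against the OVOL1 line (left) and against PC3-EMT14 (right). Points are genes, open where both values are under 1 FPKM, black bars are medians and dashed lines mark 2-fold. On the left the median of the 10 genes is 0.27, and all 15 genes of the endoplasmic reticulum list lie below 0 (13 of 15 after division by the median ratio of all genes).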

How the data were processed

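RNA-seq of 10 samples in 4 lines was analysed. The authors used TopHat to align 50-base paired-end reads to hg19 transcripts, and Cuffdiff to compare lines pairwise under upper-quartile and compatible-hits normalization, multi-read weighting and bias correction. The FPKM values deposited by the authors in 8 tables (genes and isoforms, 4 comparisons) are pooled over a line's samples. Columns of fold changes, test statistics, p-values, q-values and calls are the authors' comparisons and were not used. There were 0 columns of unmapped samples. Library depth is not given in the sources used here.

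Ratios, the 2-fold call (fold from the study's methods, floor of 1 FPKM) and all-gene percentages were computed in Python 3.11.15 with pandas 2.3.3 and numpy 2.4.6, and the call rule was tested on simulated data. HSPA1A and HSPA1B rows on alternative haplotypes, all at 0, were left out. The 10 genes and all lists were chosen with earlier results of these data known. Other pathway genes were named where they passed the call in any comparison or a clause needed them. Alternatives were a fold of 1.5, a floor of 10 FPKM or none, a pseudocount of 1 FPKM, median-ratio scaling, summed isoforms, a summed HSPA1 pair and an indirect ratio. Promoter windows came from RefSeq, annotation and transcripts from GENCODE lifted to hg19.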

Additional observations from a re-analysis of the deposited data

How the results depend on the processing

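In the OVOL2 line against the OVOL1 line, no gene was called higher at 2-fold and 1 (CRYAB) at 1.5-fold, and the 1 called lower (HSPB8) became 0 with a floor of 10 FPKM. In the OVOL1 line against PC3-EMT14, the 2 called higher became 0 with a floor of 10 FPKM and 1 (CRYAB) with a pseudocount of 1 FPKM, and the 0 called lower became 1 (BAG3) at 1.5-fold. In the OVOL2 line against PC3-EMT14, the 1 called higher became 4 at 1.5-fold, 0 with a floor of 10 FPKM and 2 when ratios were divided by the median ratio of all genes, where HSPA1A passed, and the 1 called lower (BAG3, 2.03-fold) became 0 under that scaling. Counts for PC3-Epi stayed within 1.5 times under all alternatives, and no called gene changed direction. Between the OVOL lines the uncalled ratio of HSP90AA1 changed sign, from -0.01 to 0.03 on the log2 scale, when divided by the median ratio of all genes. The pseudocount moved the log2 ratio of HSPB8 between the OVOL lines from -2.51 to -1.04 and that of CRYAB from 0.64 to 0.45, and scaling moved none of the 10 by more than 0.042. No sample could be left out and no paired analysis was possible because the authors pooled the samples of each line into 1 value. The depth behind HSPB8 and CRYAB, at or under 3.00 FPKM, is unknown, so their ratios carry an error that could not be measured.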

Other observations

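The genes whose pattern over the 4 lines came nearest to that of HSPB8 were RBP4, PHACTR3, F2R, SPARC and B4GALT6, among 11236 genes at 1 FPKM or more in every line. Their distance, the root mean square difference of centred log2 levels over the 4 lines, was 0.59 to 0.72. None of the genes compared matched HSPB8 closely. HSPB8 itself reached 1 FPKM only in the OVOL1 line, so other genes as low as HSPB8 were left out of the comparison. RBP4, the nearest, was 6.56 FPKM in the OVOL1 line, 2.62 FPKM in the OVOL2 line and 2.50 FPKM in PC3-Epi. Like HSPB8 it was highest in the OVOL1 line and lowest in PC3-Epi, where HSPB8 was under 1 FPKM. DNAJB4, a J-domain gene, was 3.67 FPKM in the OVOL1 line and 6.03 FPKM in the OVOL2 line, 1.65-fold higher, and was chosen for mention after its values were seen.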
